A study of Mus musculus with 7 samples.

Results

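The genes described here are 10 factors known from the stem cells of the dental epithelium: the transcription factor genes Sox2, Sox21, Isl1, Tbx1, Bcl11b and Trp63, the Polycomb gene Bmi1, the surface receptor genes Lrig1 and Lgr5, and the transporter gene Abcg2. They were taken by symbol, and 13 of the 25697 probes of the array carried one of these symbols, 3 for Sox21, 2 for Sox2 and 1 for each other gene. The tissue, from mice of 8 weeks, was the labial cervical loop, the outer growing end of the incisor. In the 4 mutant samples the genotype was K14CreER;Yap/Tazf/f, that is, floxed Yap and Taz with a tamoxifen-inducible Cre recombinase driven by the keratin 14 promoter, which is active in epithelium. In the 3 control samples it was Yap/Tazf/f, without the Cre, so effects of the Cre and of the deletion cannot be told apart. All mice, controls included, received 5 mg of tamoxifen on each of 2 days, and tissue was collected 48 hours after the second dose. Nothing in the labels says whether a sample is 1 animal, so the p-values reflect the spread among these samples, which may be technical.

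The mouse incisor grows throughout life, and its enamel-forming epithelium is renewed from a stem cell niche in the labial cervical loop. Sox2 marks cells in this niche that give rise to the epithelial lineages of the tooth, and Bmi1, Lrig1 and Lgr5 have been used as further markers there. YAP and TAZ are co-activators of the Hippo pathway that reach DNA through TEAD transcription factors. The comparison asked whether the transcripts of these stem cell factors differed soon after Yap and Taz were targeted.

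The arrays lay on 2 BeadChips, chip 1 with 2 mutant and 2 control arrays (replicates 1 and 2 of each) and chip 2 with 2 mutant arrays and 1 control array. On each array 13767 to 14752 probes were detected, meaning a detection p-value under 0.05 against the negative control beads. The lowest intensity of a detected probe was 79.1 to 83.0. Of the targeted genes, Yap1 had a normalised log2 intensity of 6.64 ± 0.25 in mutant arrays (SD, n = 4) and 7.27 ± 0.10 in control arrays (SD, n = 3), a difference of -0.68 (SE 0.12, limma adjusted p = 0.0443). Its difference was negative under all 20 alternatives run, from -0.74 to -0.44, but it passed under only 5 of them, with limma adjusted p-values from 0.0098 to 0.781. With 1 array omitted it passed for mutant replicate 4 alone. Wwtr1, which encodes TAZ, differed by -0.15 (95% interval -0.44 to 0.14, limma adjusted p = 0.819). Probe positions were not used here, so whether either probe reads a deleted exon was not tested. The defining markers of dental epithelium, Sox2 and Trp63 among them, were present, with all 10 of those on the array tested. Of 6 skeletal muscle markers, 5 were below detection on every array. Some markers of other tissues were detected too. Of the markers on the array, 7 of 10 for mesenchyme and 8 of 10 for macrophages were detected on at least 3 arrays and so tested. So were 5 of 7 for odontoblasts and osteoblasts, 4 of 5 for nerve and Schwann cells, 3 of 7 for T cells and 2 of 7 for endothelium. Over the whole array 10484 of 18138 gene symbols were tested, so these counts alone do not show that a tissue was present.

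None of the 9 factors that could be tested passed the test, and Abcg2 was too dim to be tested. A probe was tested when it was detected on at least 3 of the 7 arrays, which 10 of the 13 probes, of 9 genes, met. Of these, 0 had a limma adjusted p under 0.05, against 0.0614% of all 14666 probes tested (0.0341% higher and 0.0273% lower). At an unadjusted p under 0.05 there was 1 factor probe, higher in mutants, against 8.0% of all probes (4.32% higher and 3.69% lower). The log2 differences, mutant minus control, ran from -0.22 for Trp63 to 0.26 for Sox21, with 6 positive and 4 negative, where 50.1% of all probes were positive. In 3 of them the size was at least 0.2, as in 16.1% of all, and 7 had the same sign on both chips, as had 55.0% of all. Their median size was 0.11, beside 0.095 over all probes tested. For 9 of the 10 probes the 95% interval lay within 0.5 of zero on the log2 scale on both sides, as it did for 90.6% of all probes, and the widest reach was 0.53 for the brighter Sox21 probe. The 9 include Lgr5 and the dimmer Sox21 probe, both near the detection limit. The processing compresses differences there, so these intervals do not bound a change in transcript.

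**Figure D1:**
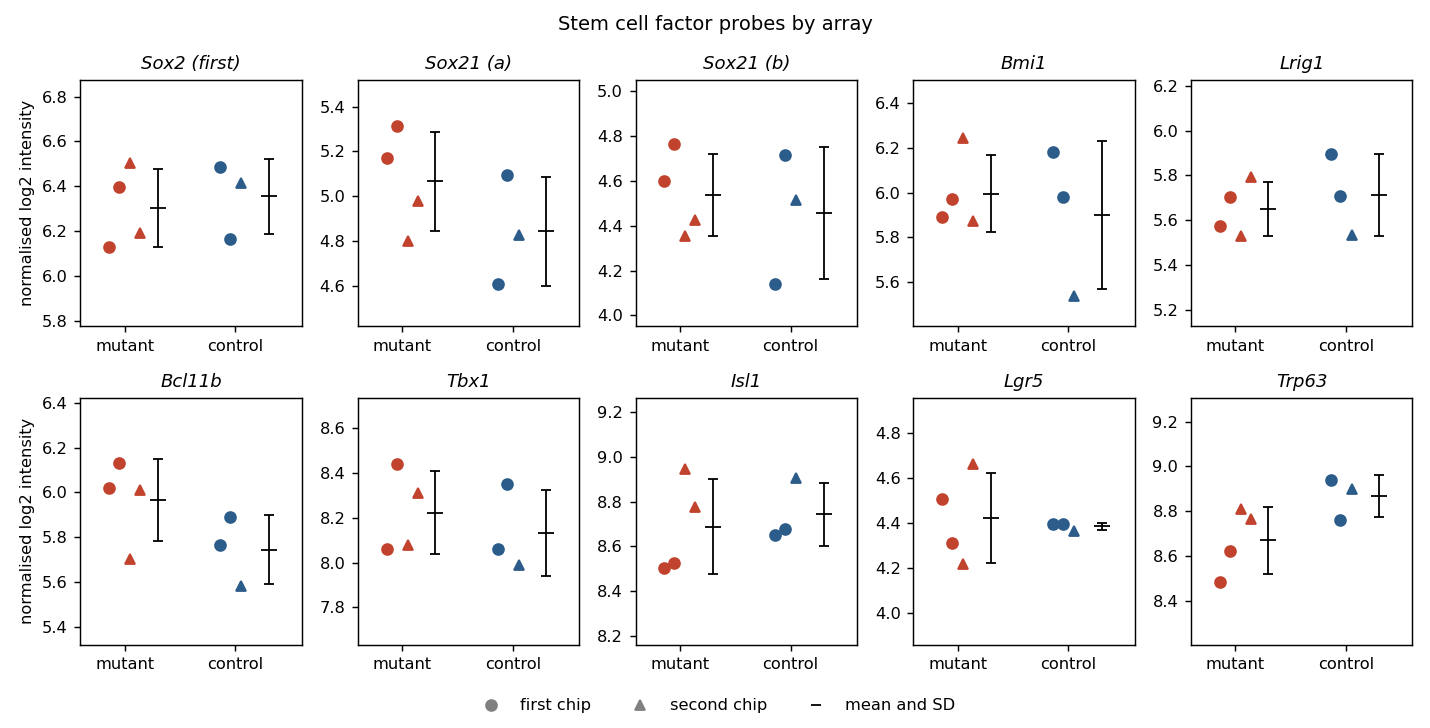
Normalised log2 intensity (vertical axes, each spanning 1.1 log2 units) of the 10 tested probes on the 4 mutant arrays (red) and 3 control arrays (blue), with circles for the first chip, triangles for the second, and black bars for mean and SD; Sox21 (a) and (b) are its brighter and dimmer tested probes. The genotypes overlap in all 10 panels.

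Sox2, a SoxB1 transcription factor, was measured by 2 probes of very different brightness. The bright probe gave normalised log2 intensities of 6.13, 6.39, 6.50 and 6.19 on mutant replicates 1 to 4, against 6.48, 6.17 and 6.41 on control replicates 1 to 3. The controls lay inside the range of the mutants. Its difference was -0.065 (SE 0.12, 95% interval -0.32 to 0.19, limma adjusted p = 0.924), so that the interval runs from 0.798 to 1.14 as a fold of the normalised values. It was -0.063 on chip 1 and -0.068 on chip 2, and turned to 0.00066 without mutant replicate 1 and to 0.014 without control replicate 1. The standard error over the beads of that probe was 4.57 to 7.26 at intensities of 126.5 to 167.0 in mutant arrays and 122.4 to 151.4 in control arrays. The second Sox2 probe was detected on 1 mutant and 1 control array and was not tested.

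Sox21, a SoxB2 factor related to Sox2 and known in the mouse for roles in hair and enamel-forming epithelium, had 3 probes. The brightest was detected on all 7 arrays and measured 5.17, 5.31, 4.80 and 4.98 in mutants, against 4.61, 5.09 and 4.82 in controls. The mutants of the first chip and control replicate 1 stand at the ends of this range, and the genotypes overlap. The difference was 0.26 (SE 0.13, 95% interval -0.012 to 0.53, limma adjusted p = 0.633), with 0.39 on chip 1 and 0.065 on chip 2, and it was 0.11 without control replicate 1. A second probe was detected on 4 of 4 mutant arrays and 2 of 3 control arrays. Its difference was 0.10 (SE 0.14, limma adjusted p = 0.884), with 0.26 on chip 1 and -0.13 on chip 2. Without control replicate 1, in which this probe was not detected, the difference was -0.080. The third probe was detected on 1 mutant array and no control array and was not tested. The accession that the authors' deposited table gives it is NM_145464, which did not match Sox21 or any other gene of the RefSeq table, while the accession of the other 2 did match Sox21.

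**Figure D2:**
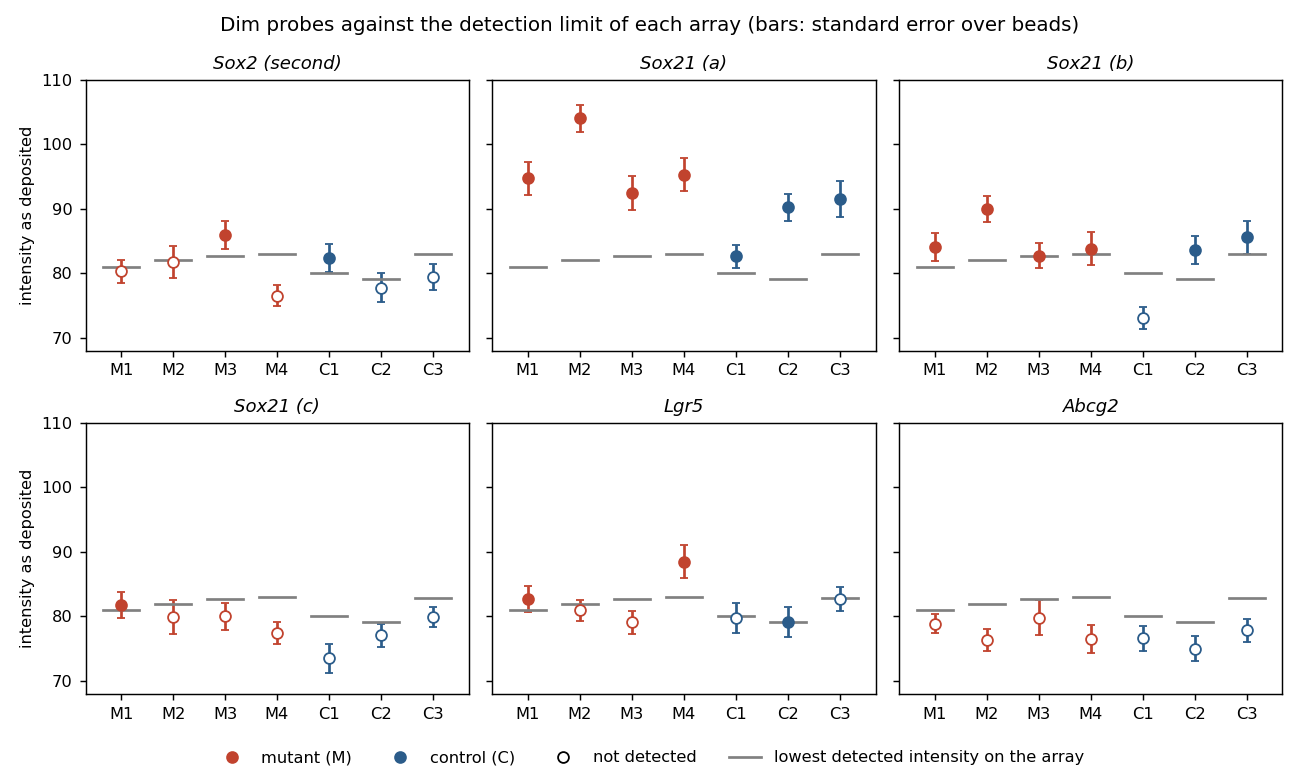
Intensity as deposited (vertical axis) of 6 dim probes on mutant arrays M1 to M4 (red) and control arrays C1 to C3 (blue), with bars for the standard error over beads, open circles for arrays on which the probe was not detected, and grey lines for the lowest intensity of any detected probe on that array. Sox21 (a) lies above the line on all 7 arrays, Lgr5 lies close to it, and Abcg2 lies under it on every array.

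Isl1, a LIM homeodomain factor that helps to pattern the incisor epithelium, was bright on every array. It measured 8.50, 8.53, 8.95 and 8.77 in mutants, against 8.65, 8.68 and 8.91 in controls. All 3 arrays of the second chip were brighter than all 4 arrays of the first, in both genotypes, so the chips differ more than the genotypes. The difference with the chip as a term was -0.11 (SE 0.11, 95% interval -0.34 to 0.12, limma adjusted p = 0.841). Tbx1, a T-box factor needed in the mouse for the cervical loop and for enamel formation, measured 8.06, 8.44, 8.08 and 8.31 in mutants, against 8.06, 8.35 and 7.99 in controls. Its difference was 0.11 (SE 0.13, 95% interval -0.15 to 0.37, limma adjusted p = 0.859), with 0.045 on chip 1 and 0.21 on chip 2. Leaving out mutant replicate 2 gave 0.030 and leaving out mutant replicate 1 gave 0.22. The highest Tbx1 value on each chip came from a mutant, and on chip 1 the lowest mutant and the lowest control lay at the same level.

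Bcl11b, a zinc finger repressor also called Ctip2 that is needed for ameloblast formation in the mouse, had the smallest p-value among the factors in this fit and in 9 of the 20 alternatives, while Trp63 had it in 6, Sox21 in 4 and Bmi1 in 1. It measured 6.02, 6.13, 5.70 and 6.01 in mutants, against 5.76, 5.89 and 5.58 in controls. Within each chip every mutant array lay above every control array, while across chips mutant replicate 3 lay below 2 of the controls. The difference was 0.26 (SE 0.11, 95% interval 0.019 to 0.50, unadjusted p = 0.0356, limma adjusted p = 0.583), and it was 0.25 on chip 1 and 0.27 on chip 2. Bcl11b ranked 889 of 14666 probes by p. The intensities as deposited were 121.4 to 137.4 in mutant arrays and 107.6 to 112.3 in control arrays, with a standard error over beads of 2.62 to 3.97. T cells, which also express Bcl11b, had 4 of their 7 markers below detection on every array (Cd3e, Cd3d, Cd3g and Lck), and the mean log2 level of the other 3, of which Thy1 is also a mesenchyme marker, was 5.52 to 5.62 in mutants and 5.26 to 5.65 in controls.

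Trp63 encodes p63, the transcription factor that establishes stratified epithelium and maintains its basal cells. It measured 8.48, 8.62, 8.81 and 8.77 in mutants, against 8.94, 8.76 and 8.90 in controls. On each chip every mutant lay below every control, and across chips only mutant replicates 3 and 4 lay above the lowest control. The difference was -0.22 (SE 0.11, 95% interval -0.46 to 0.0094, unadjusted p = 0.0590, limma adjusted p = 0.633), with -0.30 on chip 1 and -0.11 on chip 2. The standard error over the beads of this probe was 24.2 to 42.7 at intensities of 415.5 to 565.6 in mutant arrays and 444.9 to 560.9 in control arrays. Bcl11b and Trp63 were the 2 of 10 probes without overlap within either chip in the same direction, which 14.7% of all probes tested were. No factor's genotypes stood apart over all 7 arrays, against 6.55% of all probes.

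The authors' deposited table, whose sample columns are these 7 arrays after normalisation and batch adjustment but whose detection counts reach 16 arrays, gives the smallest p-values among the factors to Trp63 and Bcl11b. In the authors' deposited table the mean log2 value of Trp63 was 8.82 in mutant and 9.01 in control arrays, with a p-value of 0.0256 and a q-value of 0.302. The mean of Bcl11b in the authors' deposited table was 6.94 in mutant and 6.82 in control arrays, with a p-value of 0.0408 and a q-value of 0.346. Neither q-value was under 0.05.

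Bmi1 encodes a subunit of Polycomb repressive complex 1 that maintains stem cells by silencing cell cycle inhibitor genes. It measured 5.89, 5.97, 6.24 and 5.87 in mutants, against 6.18, 5.98 and 5.54 in controls. Control replicate 3 was the lowest of all arrays and mutant replicate 3, on the same chip, the highest. The difference was 0.12 (SE 0.14, 95% interval -0.17 to 0.41, limma adjusted p = 0.864), but -0.15 on chip 1 and 0.52 on chip 2, where control replicate 3 is the only control. Without that array chip 2 holds no control, so the difference was by design that of chip 1, -0.15.

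**Figure D3:**
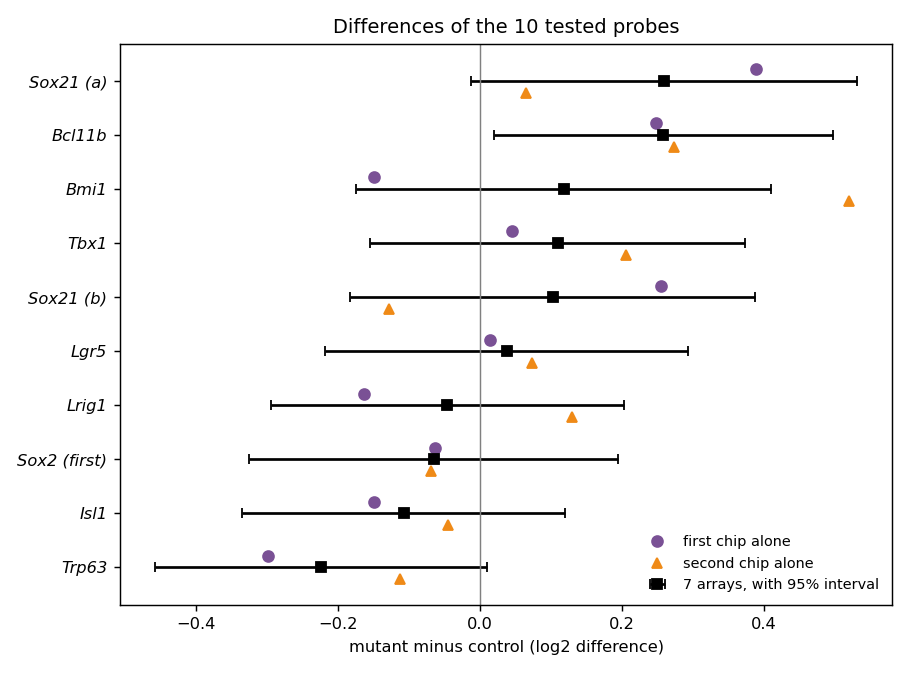
Mutant minus control log2 difference (horizontal axis) of the 10 tested probes, with squares and bars for the fit to 7 arrays and its 95% interval, circles for the first chip alone and triangles for the second. Bcl11b sits at 0.25 and 0.27 on the 2 chips, while Bmi1, Lrig1 and the dimmer Sox21 probe change sign between them.

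Lrig1 encodes a membrane protein that restrains epidermal growth factor receptors and marks slowly dividing stem cells in several epithelia. It measured 5.58, 5.70, 5.53 and 5.79 in mutants, against 5.90, 5.71 and 5.53 in controls. The lowest mutant and the lowest control lay at the same level, and the highest value was a control. The difference was -0.046 (SE 0.12, 95% interval -0.29 to 0.20, limma adjusted p = 0.950), with -0.16 on chip 1 and 0.13 on chip 2. It turned to 0.015 without mutant replicate 1 and to 0.030 without control replicate 1.

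Lgr5, the R-spondin receptor that raises Wnt signalling and marks stem cells of the gut and hair, was near the detection limit. It was detected on 2 of 4 mutant arrays and 1 of 3 control arrays, and measured 4.51, 4.31, 4.21 and 4.66 in mutants, against 4.39, 4.39 and 4.37 in controls. The mutants spread to both sides of the controls. The difference was 0.038 (SE 0.12, 95% interval -0.22 to 0.29, limma adjusted p = 0.960), and turned to -0.0055 without mutant replicate 1 and to -0.041 without mutant replicate 4. Abcg2, an efflux transporter used to mark side population stem cells, was not detected on any array, with intensities of 76.4 to 79.8 in mutants and 75.0 to 77.9 in controls. At such levels a decrease of Abcg2 in mutants could not be seen, and an increase that lifted it above detection was not seen. In whole tissue, fewer cells of a type and less RNA per cell cannot be told apart for any of these genes.

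Between settings of the processing, Bcl11b, Tbx1, Trp63 and the brighter Sox21 probe kept their sign under every alternative run. Over the alternatives Bcl11b ranged from 0.12 to 0.36 and Trp63 from -0.30 to -0.11, with lowest limma adjusted p-values of 0.265 and 0.240. Scaling each array to its median in place of quantile normalisation moved the median difference of all probes to 0.068, and Sox2, Lrig1 and Isl1 then stood at 0.051, 0.047 and 0.0076. Relative to that median they stood at -0.017, -0.020 and -0.060, the same sign as without this scaling. Lgr5 did change sign on this measure, from 0.038 without the scaling to -0.0575 relative to that median.

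**Figure D4:**
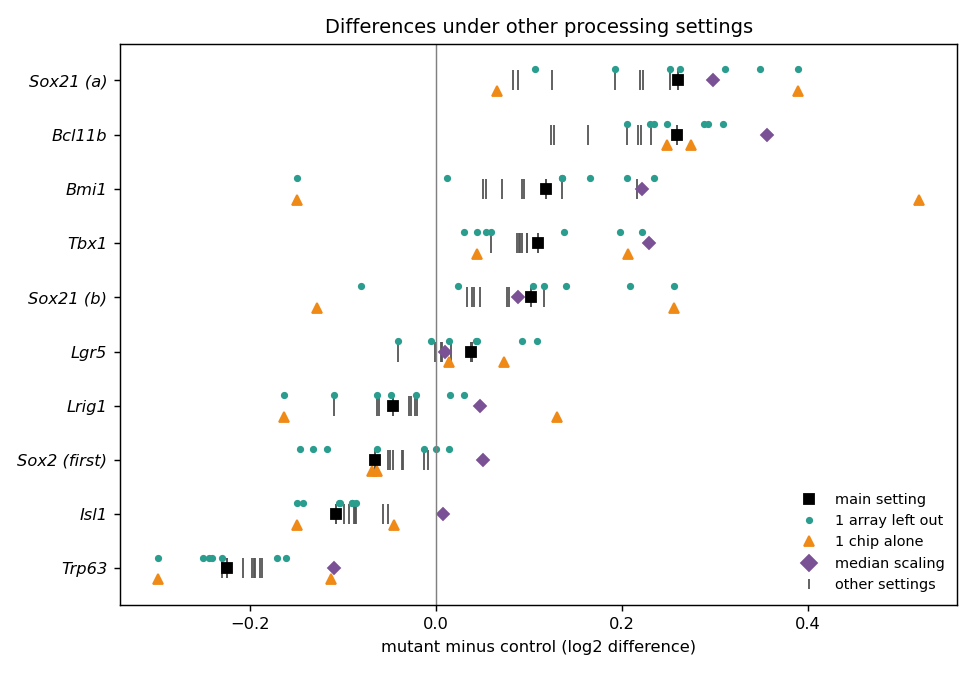
Mutant minus control log2 difference (horizontal axis) of the 10 tested probes under the main setting (squares), with 1 array left out (dots), on 1 chip alone (triangles), with median scaling (diamonds) and under the other settings (vertical ticks). Bcl11b and the brighter Sox21 probe stay right of zero and Trp63 left of it, and Sox2, Lrig1 and Lgr5 lie on both sides.

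Promoter sequence was available for 8 of the 10 genes, all but Lgr5 and Trp63, in 11 windows of 300 bases, 250 before and 50 after a gene start (RefSeq, GRCm38.p6). Because YAP and TAZ act through TEAD factors, each window was searched for the TEAD core motif GGAATG on both strands. It was found in 1 of the 11 windows (9.09%), against 14.7% of the 32851 promoters in the table. The match lay in the Bmi1 window at position -228 from the gene start, on the strand of the gene. The GC content was 66.3% in the median window, beside 52.7% over all promoters, and 43.0% in the Bcl11b window was the lowest. The sequences, in the direction of each gene, are the window of Bmi1, the holder of the match, that of Sox2, the best-known factor of this niche, and that of Bcl11b, which had the smallest p here. They lie at chr2:18676768-18677067 on the plus strand, chr3:34649745-34650044 on the plus strand and chr12:108003365-108003664 on the minus strand, and capitals mark GGAATG.
Bmi1: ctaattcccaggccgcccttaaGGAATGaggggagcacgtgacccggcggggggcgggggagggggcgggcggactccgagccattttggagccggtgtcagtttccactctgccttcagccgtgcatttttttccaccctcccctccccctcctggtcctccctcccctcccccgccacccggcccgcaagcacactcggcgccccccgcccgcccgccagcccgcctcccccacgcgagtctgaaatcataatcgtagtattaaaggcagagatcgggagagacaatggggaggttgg
Sox2: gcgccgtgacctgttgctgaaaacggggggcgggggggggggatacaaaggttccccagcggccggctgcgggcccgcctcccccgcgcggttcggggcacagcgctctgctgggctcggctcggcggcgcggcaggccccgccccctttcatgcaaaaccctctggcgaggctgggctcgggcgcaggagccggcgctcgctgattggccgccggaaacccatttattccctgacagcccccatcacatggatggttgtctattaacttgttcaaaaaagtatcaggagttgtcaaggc
Bcl11b: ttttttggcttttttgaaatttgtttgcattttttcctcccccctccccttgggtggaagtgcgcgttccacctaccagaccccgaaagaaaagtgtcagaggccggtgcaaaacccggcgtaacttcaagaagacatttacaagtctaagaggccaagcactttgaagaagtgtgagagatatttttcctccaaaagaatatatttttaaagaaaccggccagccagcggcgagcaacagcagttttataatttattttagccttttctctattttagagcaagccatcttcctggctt

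A match to these letters describes the sequence and does not show that TEAD binds there, and a window without a match says nothing about sites elsewhere. The holder of the match, Bmi1, had a difference of opposite sign on the 2 chips.

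Genes around these factors were described by lists. Among paralogs of the factors, 0 of 12 tested genes passed in either direction, with a median difference of 0.048 (0.012 without control replicate 2, 0.086 without mutant replicate 2). The Polycomb RING finger gene Pcgf6 stood at 0.26, the Lrig1 relative Lrig3 at -0.23 and Sox9 at -0.22 (limma adjusted p = 0.610, 0.650 and 0.653). Sox3, Tbx2 and Lgr6 were below detection on every array. Over all 14666 probes the median difference was 0.00025.

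Among other genes of the niche, 0 of 20 tested genes passed, with 6 positive and 14 negative and a median of -0.066 (-0.012 without control replicate 1, -0.025 without mutant replicate 1). Cdh1, the epithelial cadherin, stood at 0.45 (SE 0.13, limma adjusted p = 0.375), with 0.66 on chip 1 and 0.14 on chip 2. Shh, the hedgehog ligand made by the progeny of the stem cells, stood at -0.33 (SE 0.12, limma adjusted p = 0.502), with a second probe at -0.14. Fgf3 and Lef1 were below detection on every array.

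Among partners and repressed targets of Bmi1, 0 of 11 tested genes passed, with 5 positive and 6 negative and a median of -0.024 (0.022 without control replicate 3). Cdkn2b, which encodes the cell cycle inhibitor p15, had 5.53 ± 0.086 in mutant arrays (SD, n = 4) and 5.03 ± 0.28 in control arrays (SD, n = 3), a difference of 0.54 (SE 0.12, limma adjusted p = 0.167). Its neighbour in function Cdkn2a, the best-known gene silenced by Bmi1, was below detection on every array. The Polycomb genes Cbx6 and Yaf2 stood at 0.29 and 0.27 (limma adjusted p = 0.501 and 0.556).

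Among targets of p63 in basal epithelium, 0 of 19 tested genes passed, with 8 positive and 11 negative and a median of -0.0045 (-0.024 without mutant replicate 1, 0.024 without mutant replicate 3). The largest departures by p were the integrin gene Itga6 at -0.21, the nectin gene Pvrl1 at 0.19 and the Notch ligand gene Jag2 at -0.16 (limma adjusted p = 0.653, 0.731 and 0.735). Trp63 itself stood at -0.22 (SE 0.11), and whether its difference is larger in size than theirs was not tested.

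Among genes of the Wnt receptor complex around Lgr5, 0 of 10 tested genes passed, with 3 positive and 7 negative and a median of -0.045 (-0.098 without control replicate 2). The mean log2 level over these genes was 6.40 to 6.43 in mutant arrays and 6.47 to 6.53 in control arrays. In the lists above this level overlapped between genotypes. For paralogs it was 5.81 to 5.99 in mutant and 5.8 to 5.92 in control arrays. In the same order it was 7.05 to 7.13 and 7.10 to 7.13 for niche genes. It was 6.12 to 6.18 and 6.11 to 6.13 for Bmi1 partners and targets, and 7.21 to 7.30 and 7.23 to 7.30 for p63 targets. The mesenchyme markers described below also stood apart, at 5.94 to 6.44 in mutant and 5.69 to 5.93 in control arrays. Of all single probes tested, 6.55% stood apart over the 7 arrays. How often a list stands apart in this way was not tested. Tcf7l2, a transcription factor of the pathway, stood at -0.36 (SE 0.12, limma adjusted p = 0.451), with other probes at -0.30 and 0.059, and the co-receptor gene Lrp5 at -0.25 (limma adjusted p = 0.600). Ctnnb1, which encodes beta-catenin, stood at -0.17 on its brightest probe, with its other probes at -0.37 and 0.38, so that its probes disagree in sign. The mean level of this list uses the brightest probe alone. Whether the list stands apart with another Ctnnb1 probe was not tested. Rspo2 and Rspo3, ligands of Lgr5, were below detection on every array.

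**Figure D5:**
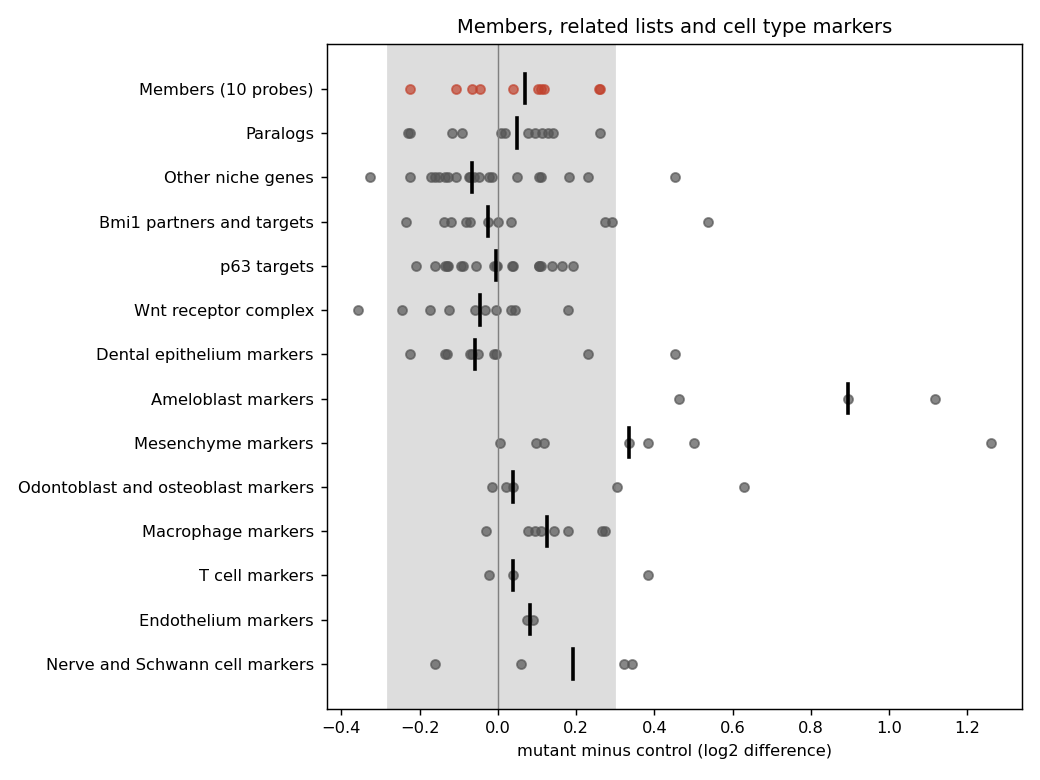
Mutant minus control log2 difference (horizontal axis) of the 10 factor probes (red) and of 1 probe per gene of each list and marker set (grey), with black ticks for medians and a grey band from -0.28 to 0.30 for the middle 95% of all 14666 probes tested. All 10 factor probes lie within the band, and ameloblast and mesenchyme markers reach furthest to the right.

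Markers of other cells were measured on the same arrays. Of the dental epithelium markers 2 of 10 were positive, with a median of -0.058 that was -0.11 without control replicate 2 and 0.011 without control replicate 1, and their mean log2 level, Sox2 and Trp63 included, was 8.50 to 8.57 in mutant and 8.51 to 8.60 in control arrays. All 3 tested ameloblast markers were positive (median 0.90, with 0.52 on chip 1 and 1.46 on chip 2), with a mean level of 6.79 to 8.24 in mutant and 6.42 to 6.80 in control arrays, and Mmp20 and Klk4 below detection. All 7 tested mesenchyme markers were positive (median 0.34, with 0.087 on chip 1 and 0.34 on chip 2), with 5.94 to 6.44 in mutant and 5.69 to 5.93 in control arrays, and Pdgfrb and Twist1 below detection. Of the macrophage markers 7 of 8 were positive (median 0.13), with 4.75 to 5.04 in mutant and 4.58 to 4.84 in control arrays and Cd14 below detection, and of the odontoblast and osteoblast markers 4 of 5 were positive (median 0.038), with 4.93 to 5.51 in mutant and 4.86 to 5.35 in control arrays and Dmp1 below detection. For nerve and Schwann cells 3 of 4 were positive (median 0.19), with 5.73 to 6.07 in mutant and 5.73 to 5.78 in control arrays and S100b below detection. Both tested endothelial markers were positive (median 0.081), with 4.60 to 4.88 in mutant and 4.59 to 4.78 in control arrays, and Pecam1, Kdr, Tek and Emcn below detection. With 1 array left out the median ran from 0.52 to 1.12 for ameloblast, from 0.087 to 0.48 for mesenchyme, from 0.081 to 0.18 for macrophage and from -0.077 to 0.28 for odontoblast and osteoblast markers, the last negative without control replicate 1. It ran from 0.034 to 0.11 for endothelial and from 0.14 to 0.23 for nerve and Schwann cell markers. No marker of these sets passed the test in the fit to 7 arrays. On chip 2 alone 3 ameloblast markers, 1 mesenchyme marker and 1 odontoblast and osteoblast marker passed, all higher in mutants, and without mutant replicate 2 there were 2, 1 and 1. For the markers as a whole, their part in the values of the stem cell factors was not tested.

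By likeness of pattern, measured as Pearson's r over the 7 arrays after the chip means were removed, the genes nearest to the bright Sox2 probe were Zfp131 (r = 0.985), Calcrl (r = 0.984) and Zyg11b (r = 0.983), picked as the highest of all tested genes. Among the other factors r with Sox2 ran from -0.76 for Lgr5 to 0.58 for Trp63. With 7 arrays that share 2 chips, these are descriptions of the arrays.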

How the data were processed

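Biotinylated cRNA from 4 mutant and 3 control samples was hybridised to Illumina arrays, per the labels' protocols. The probe intensities were deposited without normalisation, with a detection p-value and the standard error and number of beads per probe, per the file headers. The deposited series matrix holds log2 values that the authors adjusted with ComBat, per the name of their comparison table, which lists further deposited p-values, q-values and a fold score that is a signed ratio of mean log2 values. The array software, the earlier normalisation and the genome build are not given in the sources used here. Other deposited values used are the bead numbers, with a median of 31 to 38 per probe and array.

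With limma 3.58.1 in R 4.3.3, the background was corrected by normexp (limma's nec, which estimates negative controls through the detection p-values; offset 16), and log2 values were quantile normalised. Probes detected (p-value under 0.05) on at least 3 arrays, 14666 in all, were fitted on 7 arrays with genotype and chip as terms (lmFit, eBayes; 4 residual and 15.5 prior degrees of freedom). Tests are two-sided with Benjamini-Hochberg adjustment over all of them at 0.05. The number of arrays limits the precision, the offset compresses differences of dim probes, and levels of different probes are not compared. The fit was tested on simulated data for this comparison over 14666 probes, where it called 5.2% of changes of 0.25, 68% of changes of 0.5 and 100% of changes of 1 on the log2 scale.

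The members and the gene lists were chosen with earlier results of these data known, and the lists use 1 probe per gene, the brightest tested. All member probes are reported. Of each list the genes that passed, or else up to 3 of smallest p, are named, with the 3 genes most like Sox2. List genes below detection are named in addition, outside that rule, and were chosen after their values were seen. The result of 1 gene of the niche list that the rule names is not reported here. Alternatives were the background correction, the offset, median scaling, the detection filter, the chip term, the eBayes options, array weights, the series matrix values, the replicate number as a block, the probe rule of the lists and leaving out each array. Not all are separate checks of a difference. Without control replicate 3 the difference is that of the first chip alone. The replicate block gives the difference without mutant replicate 4. The detection filter and the eBayes options leave each difference unchanged.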

Additional observations from a re-analysis of the deposited data

How the results depend on the processing

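The count of 0 stem cell factor probes with an adjusted p under 0.05 held under all alternatives run, with at most 2 at an unadjusted p under 0.05. Over the whole array limma called 9 probes (5 higher, 4 lower), but 0 without background correction, with the offset of 50, without the detection filter or in the series matrix values (1274, 1282, 1914 and 1536 at an unadjusted p under 0.05), and 1 with the chip as a random block or on the first chip alone. With 1 array left out it called 0 to 14, with 0 when mutant replicate 1, mutant replicate 3 or control replicate 2 was omitted (1018, 1197 and 1041 at an unadjusted p under 0.05), 1 when control replicate 3 was, 4 when mutant replicate 4 was and 14 when control replicate 1 was. Median scaling called 9 higher and 0 lower. The cause of these changes was not tested.

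Median scaling gave 0.051 for Sox2, 0.047 for Lrig1 and 0.0076 for Isl1, above zero but below the median of 0.068 to which it moved all probes. Differences of opposite sign were -0.15 for Bmi1 on the first chip, -0.13 for the dimmer Sox21 probe and 0.13 for Lrig1 on the second, and -0.0013 for Lgr5 with array weights. With 1 array left out the ranges were -0.15 to 0.014 for Sox2, -0.16 to 0.030 for Lrig1, -0.041 to 0.11 for Lgr5, -0.080 to 0.26 for the dimmer Sox21 probe, -0.15 to 0.23 for Bmi1 and 0.030 to 0.22 for Tbx1. With the replicate number as a block, limma called 9 probes over the array and 0 stem cell factor probes, and Lgr5 stood at -0.041; no other factor changed sign. Same-numbered mutant and control arrays had correlations of their deviations of -0.019, 0.16 and 0.15. For arrays of different number they ran from -0.14 to 0.11, so the highest values were of same-numbered arrays. Same-numbered arrays always shared a chip, and chip means were not removed from the deviations, so number and chip are mixed here. These values do not settle whether the numbers pair the samples, and the main fit did not take them to. Brightness limits what can be seen of Lgr5, Abcg2 and the dim probes of Sox2 and Sox21.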
